A study of Mus musculus with 6 samples.

Results

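The transcription factors followed here are 9 that set the identity of macrophages and microglia: Spi1, Irf8, Maf, Sall1, Runx1, Mef2a, Mef2c, Cebpa and Cebpb. They were taken by gene name from the deposited FPKM annotation table, and their reads were read by gene identifier. Of the 9 members, 8 are in that table of 25032 genes, and Sall1 was found by its identifier among the 55359 genes of the count table. The cells were BV2, an immortalised mouse microglial line. Of the 6 libraries, 3 came from cells overexpressing GFP and 3 from cells overexpressing TDP43-NLS, which the design text calls TDP-43 NLSmut, a TDP-43 whose nuclear localisation signal is mutated. The labels give no time, promoter or clone for either construct and do not say whether the 3 libraries of a group came from separate cultures, so p-values reflect only how far these libraries spread, which may be technical.

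PU.1, the product of Spi1, is the ETS-family factor on which all macrophages depend, and it opens myeloid enhancers together with partners that bind beside it. IRF8 pairs with PU.1 on composite sites, RUNX1 and the C/EBP factors act with PU.1 from early myeloid progenitors onward, and C/EBP-beta also drives inflammatory genes in activated macrophages. SALL1, MAF and the MEF2 factors belong to the program of resting microglia in the brain, where SALL1 depends on TGF-beta and is quickly lost in culture.

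The libraries held 15062131 to 18005592 counted reads. GFP replicate 2 stood apart from the other GFP libraries: its chi-square per degree of freedom against them was 6.67 and 6.68 over genes, against 1.18 between GFP replicates 1 and 3 and 1.79 to 2.56 among the TDP43-NLS libraries. Tardbp, which encodes TDP-43, fell from 451 ± 23.9 to 376 ± 9.61 CPM (reads scaled to library size with TMM, mean ± SD, n = 3 each). Tardbp was thus not raised in the libraries labelled as overexpressing TDP43-NLS. Reads of the construct itself have no row of their own and may not be counted under Tardbp. The fall therefore cannot decide whether the label holds, and every direction rests on the labels. All 12 microglial or macrophage markers were measured. Their summed level was 1555 to 1605 FPKM in the libraries labelled GFP and 1440 to 1497 FPKM in those labelled TDP43-NLS. Of the 12, 5 rose and 5 fell by the rule given below, against 29.3% and 28.2% of all tested genes. The resting-microglia markers P2ry12 and Tmem119 were low, at 0.504 and 0.959 FPKM with GFP and 0.101 and 1.61 FPKM with TDP43-NLS. Summed markers of neurons, astrocytes, lymphocytes, oligodendrocytes and endothelial cells or fibroblasts stayed under 1 FPKM in every library, and 5 of 6 lymphocyte markers, 4 of 5 neuron markers, Aqp4, Mog and Dcn had 0 reads. Summed neutrophil markers, with S100a9 at 0, were 1.78 to 2.29 FPKM in the GFP libraries and 0.443 to 0.789 FPKM in the TDP43-NLS libraries. Pecam1, an endothelial marker that other cells also express, had 8 reads with GFP and 75 with TDP43-NLS. The part of these markers in the results was not tested.

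The identity factors moved in both directions, and mostly by little. Cebpa, Runx1, Spi1, Irf8 and Mef2c fell in the libraries labelled TDP43-NLS, Cebpb rose, Maf and Mef2a were not called, and Sall1 was not detected. A gene is said to have risen or fallen where edgeR's quasi-likelihood test gave a Benjamini-Hochberg adjusted p under 0.05 over all 13199 tested genes. By that rule 57.5% of all tested genes were called, with 28.2% lower and 29.3% higher. Of the 8 tested members 5 fell and 1 rose. The groups did not overlap in CPM for 6 of the 8, which is near the 63.2% of all tested genes. The median log2 fold change of the 8 was -0.21, and that of all tested genes was 0.0027. In these bulk samples, less RNA per cell and a change in how many cells express a gene cannot be told apart.

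**Figure D1:**
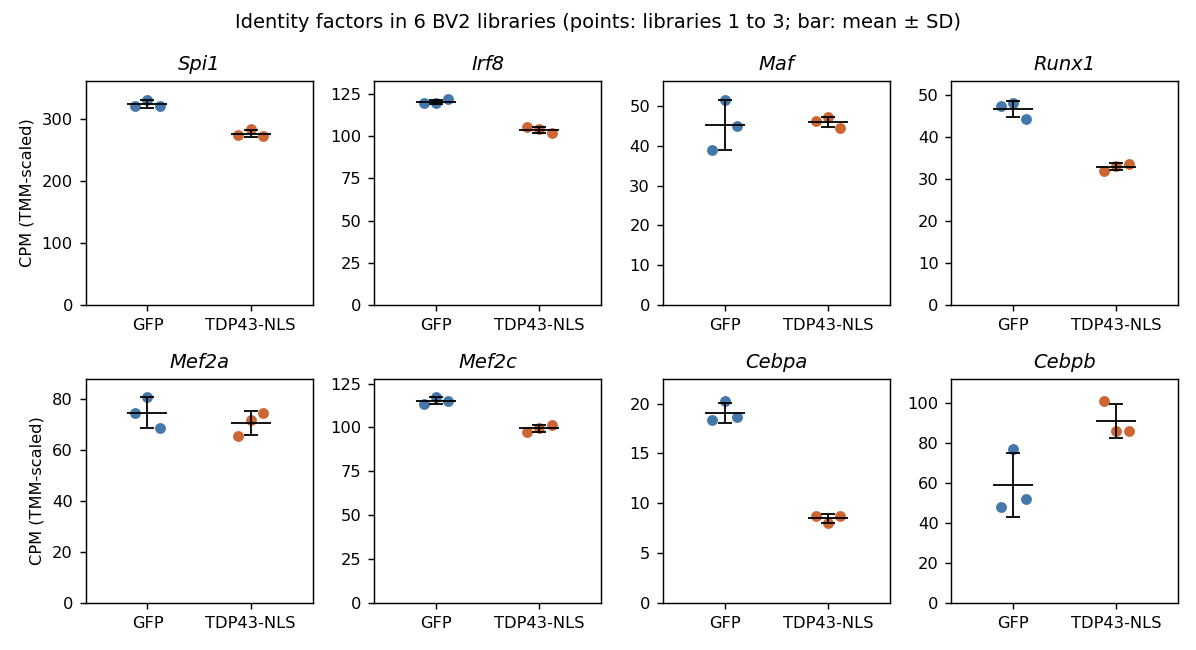
CPM after TMM scaling (vertical axes, from 0) of the 8 detected factors in the 3 GFP libraries (blue) and the 3 TDP43-NLS libraries (orange), with bars for the mean ± SD. Cebpa and Runx1 show the widest gaps downwards, Cebpb is higher in the TDP43-NLS libraries with GFP replicate 2 nearest to them at 77.2 CPM, and Maf and Mef2a overlap between the groups.

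Spi1 (ENSMUSG00000002111, GRCm39 chromosome 2, 90912735 to 90946101, plus strand) had 320, 332 and 320 CPM in the GFP libraries and 274, 284 and 272 CPM in the TDP43-NLS libraries. Every GFP library was above every TDP43-NLS library. Spi1 fell by 14.6%, with a log2 fold change of -0.23 (standard error 0.04, edgeR quasi-likelihood test, adjusted p = 0.000254). It stayed the most abundant of the 9 factors by level per length, at 122 ± 2.68 FPKM with GFP and 101 ± 2.50 FPKM with TDP43-NLS (SD, n = 3 each), above 97.3% and 96.5% of the tested genes. Its close relatives Spib and Spic, which belong to lymphoid cells and iron-handling macrophages, had 3 and 0 reads in all GFP libraries and 0 and 3 in all TDP43-NLS libraries.

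Irf8 (ENSMUSG00000041515, chromosome 8, 121463097 to 121483433, plus strand), the partner of PU.1 needed for microglial development and activation, had 120, 120 and 122 CPM in the GFP libraries and 105, 104 and 102 CPM in the others. The groups were again fully separate, with a small spread within each. Irf8 fell by 13.8% (log2 fold change -0.21, standard error 0.04, adjusted p = 0.000563). Its 95% interval, -0.30 to -0.13, lies almost on that of Spi1, -0.31 to -0.14. Among all tested genes, 55.1% had a larger absolute log2 fold change than Spi1 and 57.1% a larger one than Irf8, so both changes were of ordinary size in this comparison.

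Runx1 (ENSMUSG00000022952, chromosome 16, 92398354 to 92623037, minus strand), a factor of blood formation that acts with PU.1, had 47.5, 48.1 and 44.5 CPM in the GFP libraries. In the TDP43-NLS libraries it had 32.1, 33.3 and 33.7 CPM, all below the lowest GFP library. It fell by 29.3% (log2 fold change -0.50, standard error 0.06, adjusted p = 5.13e-06). Cbfb, the subunit that stabilises RUNX proteins on DNA, fell as well, from 188 ± 2.40 to 146 ± 3.0 CPM (log2 fold change -0.37, adjusted p = 3.85e-06). Runx2, best known from bone, rose by 0.25 on the log2 scale (adjusted p = 0.00933, lost in DESeq2 with an adjusted p = 0.0713), and Runx3 had a log2 fold change of -0.07 (95% interval -0.20 to 0.06). By level per length Runx3 was the leading RUNX gene in both groups, with 70.5% ± 1.45 of the summed RUNX FPKM for GFP and 72.2% ± 0.148 for TDP43-NLS, and Runx1 went from 18.9% ± 0.755 to 14.3% ± 0.530 of it (SD, n = 3 each).

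Many genes of chromosome 16 were lower beside Runx1. The 399 tested genes of that chromosome had a median log2 fold change of -0.21, with 205 lower and 71 higher. That is 51.4% lower and 17.8% higher, against 28.2% and 29.3% of all tested genes. Other chromosomes were skewed too. On chromosome 9, 58.7% were lower (median -0.31), and on chromosome 12, 46.4% were higher (median 0.17). On chromosome 13, which holds Mef2c, 37% were lower and 17.5% higher (median -0.12). Within 5 Mb of Runx1 on either side, the other 54 tested genes had a median of -0.26, with 29 lower and 7 higher. The other members sat in neighbourhoods with medians between -0.09 (Mef2c, 14 genes) and 0.11 (Maf, 62 genes), and the 60 genes around Cebpa had a median of 0.02. The part of the chromosome in the decrease of Runx1 was not tested.

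**Figure D2:**
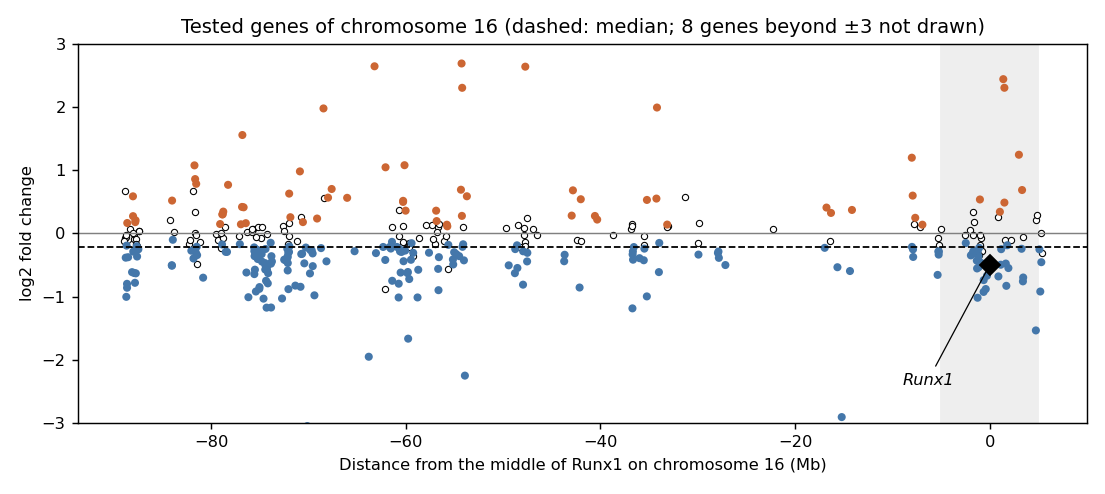
Log2 fold change (vertical axis) of each tested gene of chromosome 16 against its distance in Mb from the middle of Runx1, with called genes in blue (lower) and orange (higher), others open, the median as a dashed line and the 5 Mb window shaded. Runx1 (black diamond) lies at -0.50, below the chromosome's median of -0.21, and 8 genes beyond ±3 are not drawn.

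Mef2c (ENSMUSG00000005583, chromosome 13, 83652153 to 83815199, plus strand), a MADS-box factor that restrains microglial inflammatory responses, had 113, 117 and 115 CPM in the GFP libraries and 97.5, 99.7 and 101 CPM in the TDP43-NLS libraries. The groups did not overlap. It fell by 13.6% (log2 fold change -0.21, standard error 0.04, adjusted p = 0.000765), much as Spi1 and Irf8 did. Mef2a (ENSMUSG00000030557, chromosome 7, 66880911 to 67022606, minus strand), its paralogue, had 74.5, 80.7 and 68.5 CPM against 65.3, 71.8 and 74.5 CPM. These groups overlapped, and the log2 fold change of -0.08 was not called (adjusted p = 0.340, 95% interval -0.22 to 0.07). Lysmd4 overlaps the span of Mef2a on the other strand and had 199 and 255 reads in the groups, few beside the 3726 and 3546 of Mef2a. Mef2d rose by 0.14 on the log2 scale (adjusted p = 0.0161), a call lost when GFP replicate 1, GFP replicate 3 or TDP43-NLS replicate 2 was left out (adjusted p = 0.0729, 0.0745 and 0.0557) and with library totals in place of TMM (adjusted p = 0.0673). Summed over Mef2a, Mef2b, Mef2c and Mef2d the level was 44.9 ± 2.1 FPKM with GFP and 46.0 ± 1.16 FPKM with TDP43-NLS, with overlapping libraries, and Mef2d made up 71.3% ± 0.361 and 74.9% ± 1.14 of it (SD, n = 3 each).

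Maf (ENSMUSG00000055435, chromosome 8, 116409681 to 116434533, minus strand), a large MAF factor of mature tissue macrophages, had 39.0, 51.4 and 45.0 CPM in the GFP libraries and 46.1, 47.1 and 44.5 CPM in the TDP43-NLS libraries. All TDP43-NLS libraries lay inside the range of the GFP libraries. The log2 fold change of 0.02 was not called (adjusted p = 0.837, 95% interval -0.15 to 0.20), and its sign depended on the scaling: it was -0.01 with library totals. Of the small MAF proteins, which lack an activation domain, Maff rose by 0.73 and Mafk by 0.45 on the log2 scale, while Mafg, at 0.09, was not called (adjusted p = 0.0879, but 0.0434 without TDP43-NLS replicate 3).

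Sall1 (ENSMUSG00000031665), the zinc-finger factor that marks microglia among macrophages, had 0 reads in all 6 libraries. With 49395151 reads for GFP and 50679537 for TDP43-NLS, this allows up to 0.0607 and 0.0592 CPM, the level of 3 reads over a group, and covers counting error only. Sall4 had 0 and 1 reads. Sall3 had most of the SALL reads, with 22.6, 28.2 and 21.0 CPM in the GFP libraries and 19.1, 18.6 and 17.9 CPM in the TDP43-NLS libraries. Sall3 fell by 0.37 on the log2 scale (adjusted p = 0.00623), and by 0.23 without GFP replicate 2, its highest library. Sall2 was low, at 1.72 and 1.28 CPM, and was not called (adjusted p = 0.110).

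The C/EBP genes held the largest differences among the members, in opposite directions. Cebpa (ENSMUSG00000034957, chromosome 7, 34818718 to 34821353, plus strand), the factor that commits progenitors to the myeloid line and halts proliferation, had 18.4, 20.2 and 18.6 CPM in the GFP libraries and 8.76, 7.97 and 8.69 CPM in the TDP43-NLS libraries. The lowest GFP library was far above the highest TDP43-NLS library. Cebpa fell by 55.7% (log2 fold change -1.17, standard error 0.08, adjusted p = 7.94e-08), and 7.96% of the tested genes had a larger absolute log2 fold change. It was the only member still called when the test was set against an absolute log2 fold change of 0.5, a test that 5.64% of all genes passed as lower and 9.25% as higher.

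Cebpb (ENSMUSG00000056501, chromosome 2, 167530835 to 167532338, plus strand), which is induced by cytokines and lipopolysaccharide, had 47.9, 77.2 and 52.2 CPM in the GFP libraries and 101, 86.3 and 86.3 CPM in the TDP43-NLS libraries. The groups did not overlap, but GFP replicate 2 came near the TDP43-NLS libraries. Cebpb rose by 54.0% (log2 fold change 0.62, standard error 0.13, adjusted p = 0.00132), and by 0.86 on the log2 scale without GFP replicate 2. Its adjusted p was 0.335 against an absolute log2 fold change of 0.5. The span of Tmem189, on the other strand, covers 60.4% of the span of Cebpb (908 bases). The library protocol names no step that marks the strand, so reads of these genes cannot be told apart where they overlap. Tmem189 had 119, 126 and 118 CPM in the GFP libraries and 185, 191 and 186 CPM in the others. It rose by a log2 fold change of 0.63, close to that of Cebpb (adjusted p = 4.70e-08) but without the high value in GFP replicate 2. The part of the overlap in the increase of Cebpb was not tested.

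The rest of the C/EBP family rose or was not called. Cebpd, an early partner of Cebpb in inflammation, had 13.4, 16.9 and 12.3 CPM in the GFP libraries and 43.3, 41.0 and 41.2 CPM in the TDP43-NLS libraries, a log2 fold change of 1.56 (adjusted p = 1.10e-08). Like Runx1, Cebpd lies on chromosome 16, where 71 of the 399 tested genes rose. Cebpg, a partner without an activation domain, rose by 0.34, Ddit3 (CHOP, the C/EBP homologue of endoplasmic reticulum stress) by 0.73 and Cebpz, a nucleolar CCAAT-binding protein, by 0.23. Cebpe, the factor of granulocyte maturation, had 43.9 ± 1.93 and 46.4 ± 0.883 CPM (SD, n = 3 each) and was not called (log2 fold change 0.08, adjusted p = 0.229).

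By level per length, the sum of Cebpa, Cebpb, Cebpd, Cebpe and Cebpg was 85.4, 109 and 90.4 FPKM in the GFP libraries and 127.7, 118.5 and 117 FPKM in the TDP43-NLS libraries. Cebpb and Cebpe made up most of it in both groups. Cebpa went from 7.77% ± 0.579 to 2.62% ± 0.135 of the sum and Cebpd from 4.03% ± 0.314 to 9.11% ± 0.176 (SD, n = 3 each). The ratio of Cebpb to Cebpa FPKM was 4.56, 6.70 and 4.91 for GFP and 20.2, 19.0 and 17.4 for TDP43-NLS. The ratio was chosen because its members moved in opposite directions, so its separation between the groups is a description and was not tested.

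**Figure D3:**
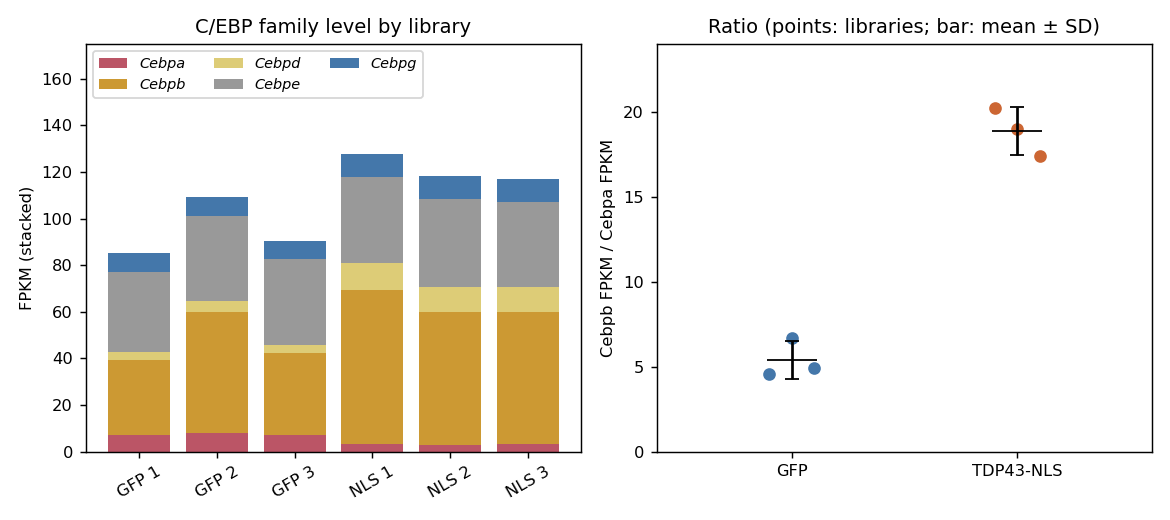
Left, FPKM of 5 C/EBP genes stacked for each of the 6 libraries (NLS is TDP43-NLS); right, the ratio of Cebpb to Cebpa FPKM per library with bars for the mean ± SD. The Cebpa layer at the base is thinner in each TDP43-NLS library, and the ratio goes from 5.39 ± 1.15 to 18.9 ± 1.42.

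The promoters of the 3 members with the largest differences are shown, since Cebpa and Runx1 fell while Cebpb rose. Each runs from 250 bases before to 50 bases after the start of the gene in RefSeq, 5′ to 3′ on the gene's strand, on build GRCm38.p6, an earlier build than that of the counts. Runx1 has a distal and a proximal promoter there. Capitals mark matches, on either strand, to the 6 motifs searched, which are named after the sequences.
Cebpa (chr7:35119043-35119342, plus strand): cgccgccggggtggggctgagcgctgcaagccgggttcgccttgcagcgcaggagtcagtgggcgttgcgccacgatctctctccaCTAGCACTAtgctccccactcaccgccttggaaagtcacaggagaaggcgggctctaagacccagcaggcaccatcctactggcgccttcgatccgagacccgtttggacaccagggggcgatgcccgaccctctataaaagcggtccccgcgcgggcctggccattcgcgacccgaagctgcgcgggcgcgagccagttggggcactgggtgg
Cebpb (chr2:167688665-167688964, plus strand): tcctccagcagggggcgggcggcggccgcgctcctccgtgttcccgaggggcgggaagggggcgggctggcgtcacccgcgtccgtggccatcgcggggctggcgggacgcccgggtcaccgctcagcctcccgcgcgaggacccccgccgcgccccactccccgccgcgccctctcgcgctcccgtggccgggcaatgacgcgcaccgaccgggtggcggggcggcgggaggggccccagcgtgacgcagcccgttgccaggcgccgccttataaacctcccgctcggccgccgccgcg
Runx1, distal (chr16:92826025-92826324, minus strand): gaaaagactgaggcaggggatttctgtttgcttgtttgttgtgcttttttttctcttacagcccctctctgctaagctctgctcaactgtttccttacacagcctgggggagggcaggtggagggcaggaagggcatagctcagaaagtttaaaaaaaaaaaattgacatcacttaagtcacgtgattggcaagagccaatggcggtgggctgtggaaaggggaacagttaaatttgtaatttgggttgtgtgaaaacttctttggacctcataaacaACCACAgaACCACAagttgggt
Runx1, proximal (chr16:92697280-92697579, minus strand): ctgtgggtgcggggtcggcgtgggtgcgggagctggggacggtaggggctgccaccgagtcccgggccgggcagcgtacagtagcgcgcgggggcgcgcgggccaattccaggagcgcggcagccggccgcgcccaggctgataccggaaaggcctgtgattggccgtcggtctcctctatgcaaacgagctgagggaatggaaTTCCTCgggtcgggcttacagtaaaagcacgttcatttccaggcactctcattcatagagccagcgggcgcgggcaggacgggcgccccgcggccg

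The motifs were GAGGAA for PU.1, TTGCNNAA for C/EBP, TGTGGT for RUNX, GAAANNGAA for IRF, TGCTGA for MAF and CTANNNNTA for MEF2, on both strands. Of the 9 members, 7 had entries in the table, with 13 promoters between them, and Spi1 and Maf had none. The PU.1 motif was in 4 of the 13 promoters (of Mef2a, Mef2c and Runx1), against 28.3% of all 32851 promoters in the table. The MEF2 motif was in 3 (Cebpa, Mef2a and Mef2c, against 21.0%), the MAF motif in 2 (Irf8 and Mef2c, against 19.5%) and the RUNX motif in 1, against 16.8%. That last one is the distal Runx1 promoter, which holds the RUNX motif at positions 29 and 37 counted from the start of the gene. No member's promoter held the C/EBP or IRF motif, which were in 10.8% and 8.56% of all promoters. The Cebpb promoter, with 80.7% G and C against a median of 52.7% for all promoters, held none of the 6 motifs. In the Cebpa promoter, with 67.3% G and C, the only match is to the loose MEF2 pattern. N stands for any base, so the middle letters of that pattern were free. The matches were CTAGCACTA in Cebpa, CTAACGATA in Mef2c and CTAAAAATA in Mef2a, where an overlapping match, TAAAAATAG, was on the other strand. A match is a description of these letters and not a binding site.

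The order of the members by level per length changed around Cebpa. In the GFP group it was Spi1, Cebpb (39.8 ± 10.8 FPKM), Irf8 (17.3 ± 0.150), Mef2c (7.42 ± 0.141), Cebpa (7.33 ± 0.396), Maf (5.55 ± 0.770), Mef2a (5.14 ± 0.432) and Runx1 (3.93 ± 0.171), each a mean ± SD of 3 libraries. The libraries of Mef2c and Cebpa overlapped there, as did those of Maf and Mef2a, so neither pair can be ordered. In the TDP43-NLS group it was Spi1, Cebpb (59.9 ± 5.51 FPKM), Irf8 (14.5 ± 0.244), Mef2c (6.25 ± 0.125), Maf (5.50 ± 0.164), Mef2a (4.75 ± 0.324), Cebpa (3.17 ± 0.157) and Runx1 (2.71 ± 0.0717), with no overlap between neighbours. Cebpa thus went from level with Mef2c to below Maf and Mef2a.

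Among the relatives and DNA-binding partners of the members, more genes rose than fell. Of 26 such genes 22 were tested, and 11 rose, 3 fell (Sall3 and Cbfb among them) and 8 were not called, with a median of 0.11 on the log2 scale. Thus 50% of the tested relatives rose and 13.6% fell, against 29.3% and 28.2% of all tested genes. The IRF genes that rose were Irf7, the amplifier of the interferon response (64.7 ± 2.26 to 177 ± 4.52 CPM, log2 fold change 1.45, adjusted p = 2.75e-11), Irf4 (2.63 ± 0.386 to 7.04 ± 0.123 CPM, log2 fold change 1.41, adjusted p = 1.21e-06) and Irf3, the factor activated by nucleic acid sensors (log2 fold change 0.44). Irf1, Irf2, Irf5 and Irf9 had log2 fold changes of -0.12, -0.01, -0.09 and 0.08 and were not called, and Irf1 was called lower without GFP replicate 2 (adjusted p = 0.0232). Irf8 was the only one of the 8 IRF genes to fall, and its share of their summed FPKM went from 17.6% ± 0.231 to 11.6% ± 0.120, while that of Irf7 went from 17.7% ± 0.761 to 37.1% ± 0.431 (SD, n = 3 each). Mef2b, with 22 and 41 reads, was not tested.

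**Figure D4:**
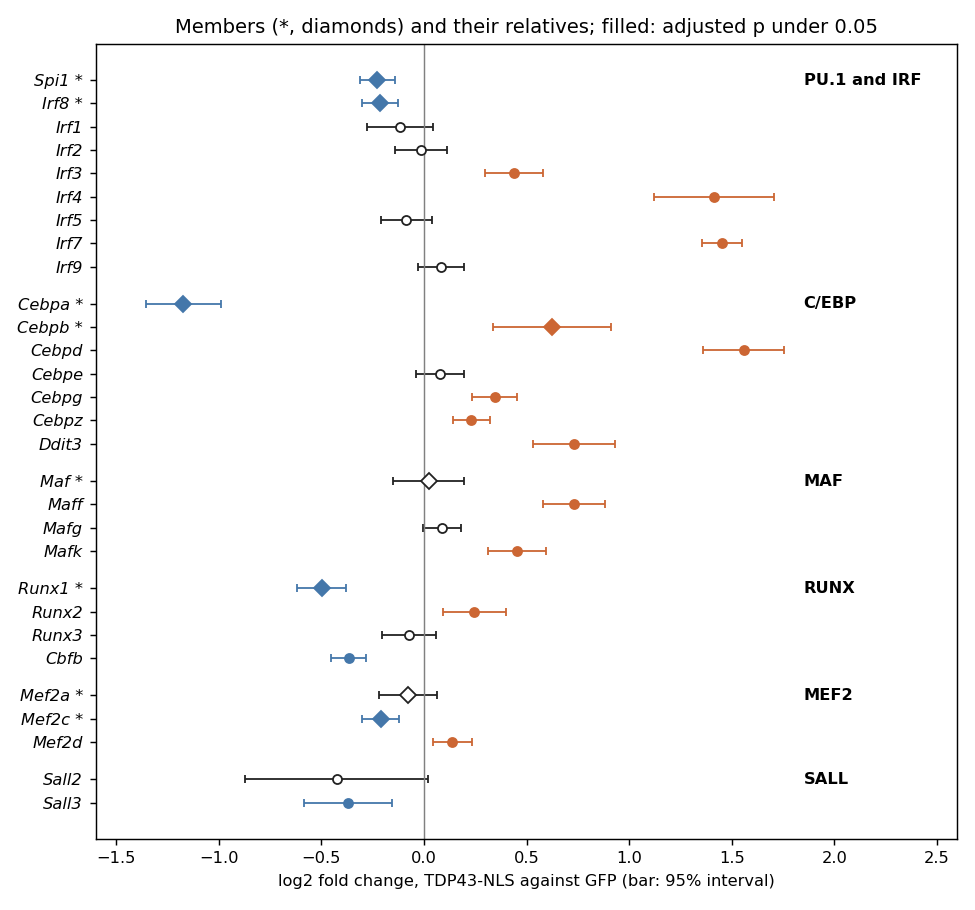
Log2 fold change, TDP43-NLS against GFP (horizontal axis), with 95% intervals, of the 8 tested members (diamonds, starred) and of tested relatives or partners named in the text (circles), by family; blue is called lower, orange called higher and open not called. Cebpa and Runx1 lie left of 0 while Cebpb, Cebpd and Runx2 lie right of it, and Irf8 lies left of 0 while Irf3, Irf4 and Irf7 lie right of it.

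Other transcription factors of myeloid cells mostly fell. Of 35 listed genes 31 were tested, and 18 fell, 4 rose and 9 were not called, with a median log2 fold change of -0.29. That is 58.1% lower and 12.9% higher, beside the 28.2% and 29.3% of all tested genes. Tal1, a factor of blood stem cells, fell from 64.4 ± 2.07 to 34.97 ± 1.03 CPM (log2 fold change -0.88, adjusted p = 1.21e-08). Tfeb, the activator of lysosomal genes, fell by 1.12 on the log2 scale, Rxra, the shared partner of nuclear receptors, by 0.50 and Zbtb46, known from dendritic cells, by 2.35. The ETS factor Fli1 fell by 0.87 and lies on chromosome 9, whose 712 tested genes had a median log2 fold change of -0.31. The ETS factor Ets2, on chromosome 16, rose from 76.5 ± 2.58 to 181 ± 2.15 CPM (log2 fold change 1.25, adjusted p = 6.62e-11).

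Of the genes listed as dependent on PU.1, more rose than fell. Whether each of them depends on PU.1 in these cells was not tested. All 30 were tested, and 15 rose, 10 fell and 5 were not called, with a median of 0.17 on the log2 scale. These were 50% higher and 33.3% lower, against 29.3% and 28.2% of all tested genes. Adgre1, which encodes F4/80, rose by 1.52 on the log2 scale, Cd14, the co-receptor for lipopolysaccharide, by 1.21, the inhibitory Fc receptor Fcgr2b by 1.10 and the cytokine receptor subunit Csf2rb by 0.87. Mrc1, the mannose receptor, went the other way, from 64.4 ± 1.52 to 6.20 ± 1.03 CPM (log2 fold change -3.38, adjusted p = 3.68e-12), and Ly86, a partner of a Toll-like receptor homologue, fell by 1.66. Genes linked to IRF8 had 7 higher and 2 lower of 14 tested (50% and 14.3%, against the same 29.3% and 28.2%), with a median of 0.21. Those that rose include Nlrc4 and the sensors Naip2, Naip5 and Naip6 of the same inflammasome (log2 fold changes 1.11, 0.40, 0.45 and 0.60) and Cybb, a subunit of the phagocyte oxidase (0.31). Reads of the near-identical Naip genes may be split between them.

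The list of inflammatory genes linked to C/EBP-beta was higher throughout its tested members. Whether each of them depends on C/EBP-beta in these cells was not tested. Of 18 genes 16 were tested and all 16 rose, with a median log2 fold change of 2.32, against 29.3% of all tested genes. Lcn2, an iron-sequestering protein and a classical target, rose from 0.781 ± 0.0650 to 36.1 ± 0.80 CPM (log2 fold change 5.52, adjusted p = 5.11e-13), and Ptgs2, the inducible prostaglandin synthase, by 2.87. Nos2, Cxcl2, Tnf and C3 rose by 9.79, 6.81, 3.07 and 1.69. Over the GFP libraries Nos2 had only 12 reads and Cxcl2 only 7, so the sizes of their changes are uncertain. Csf3 went from 1 read over the GFP libraries to 695, which is 677 times as many at equal depth (95% exact interval 121 to 26790). Il6 went from 2 to 236 reads, or 115 times as many (31.5 to 955.2). Both intervals cover counting error only. Arg1, with 8 and 9 reads, and Il12b, with none, were not tested. Several of these genes were known from earlier results of these data to be strongly raised, so their count is not independent evidence.

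Homeostatic microglial genes linked to SALL1, MAF and MEF2C mostly fell. Of 20 genes 13 were tested, and 9 fell and 4 rose, with a median of -0.76 on the log2 scale. The 69.2% that fell compare with 28.2% of all tested genes, and the 30.8% that rose are near the 29.3% of all tested genes. The apoptotic cell receptor Mertk fell by 2.97 on the log2 scale. P2ry12, the ADP receptor of resting microglia, fell by 2.27. Tgfbr1, a receptor for TGF-beta, had a log2 fold change of -0.78, while the fractalkine receptor Cx3cr1 rose by 0.77 and the selectin ligand Selplg by 0.76. The reads of P2ry12 were 64 with GFP and 13 with TDP43-NLS. Gpr34 and Fcrls, named after their values were seen, also fell from few reads (56 to 13 and 46 to 15). Tmem119 and Gpr84, named after their values were seen as well, rose (110 to 187 and 368 to 589 reads). Among receptors, ligands and transducers upstream of the members, all 24 were tested, and 11 fell, 8 rose and 5 were not called (median -0.05). The 45.8% that fell stand beside 28.2% of all tested genes, and the 33.3% that rose are near the 29.3% of all. Besides Tgfbr1 and Csf2rb, Stat3, a transducer of interleukin 6 signals that induces Cebpb, rose by 0.56 and its receptor subunit Il6st fell by 0.53. Of the class IIa histone deacetylases, which bind and repress MEF2 factors, Hdac9 fell by 1.14 on the log2 scale and Hdac7 rose by 2.07 from a low level (35 against 148 reads). Hdac4 and Hdac5, named after their values were seen, also fell (log2 fold changes -0.38 and -0.23).

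**Figure D5:**
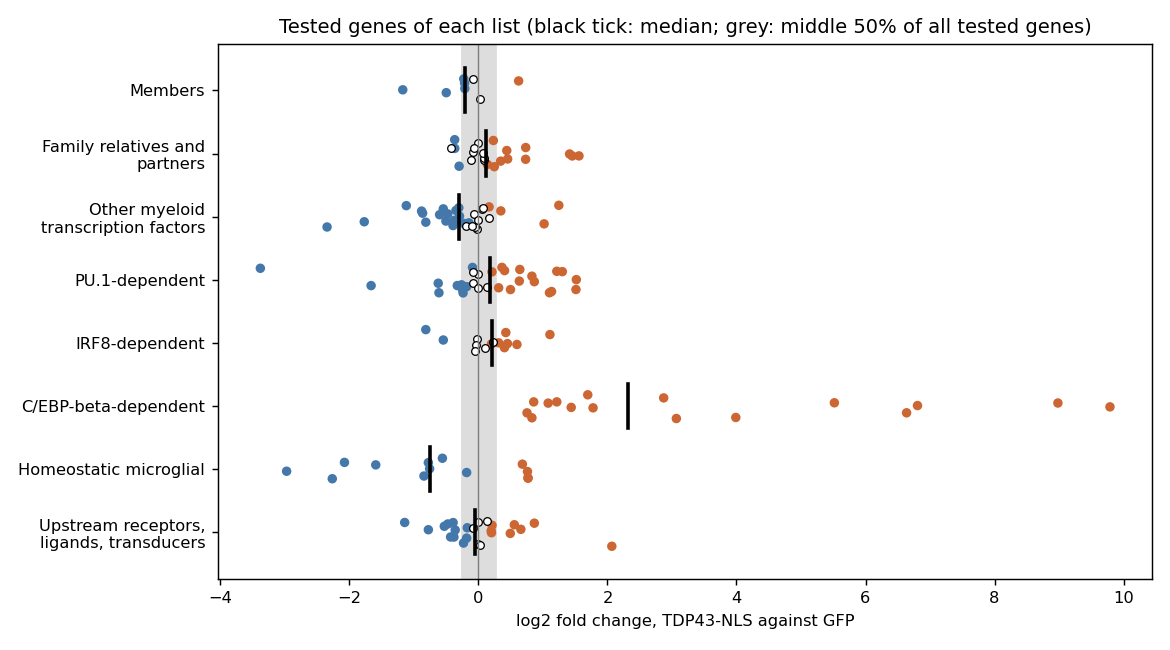
Log2 fold change (horizontal axis) of each tested gene in the members and 7 related lists, with blue for called lower, orange for called higher, open points for not called, black ticks for list medians and a grey band for the middle 50% of all tested genes. The points of the C/EBP-beta list all lie right of 0 with a median of 2.32, and most other myeloid transcription factors lie left of 0 with a median of -0.29.

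The genes whose profile over the 6 libraries was most like that of Cebpa were Btbd3, Gm9796, Sesn1, A430110L20Rik and Zranb3. Likeness was the root mean square distance between centred log2 CPM values, which was 0.0233 for Btbd3 and 0.0540 for Zranb3. Such a distance is set mainly by the difference between the groups. Btbd3 had 9.01 ± 0.385 and 4.09 ± 0.235 CPM in the GFP and TDP43-NLS groups, Sesn1 48.7 ± 0.403 and 21.3 ± 0.930, and Zranb3 184 ± 1.12 and 82.9 ± 0.60 (SD, n = 3 each).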

How the data were processed

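The authors deposited raw read counts for 55359 mouse genes. They also deposited FPKM values, scaled to gene length and library total, for the 25032 of them with a read. Bowtie2 2.2.3, HISAT2 2.1.0 and HTSeq 0.6.0 and the build GRCm39 are listed in the submitters' processing notes, in roles not given. Per the labels' protocols, mRNA was selected on poly-T beads, and no step that marks the strand is named. Each FPKM value was a fixed multiple of the depth-scaled count of its gene.

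Counts were tested with edgeR 4.0.16 in R 4.3.3 (filterByExpr at 10 reads and 15 in total, TMM, quasi-likelihood, two-sided, group only), called at an adjusted p under 0.05. The standard error is the log2 fold change divided by the square root of F. DESeq2 1.42.0 and limma 3.58.1 on log2(FPKM + 1) and log2(FPKM + 0.1), with a mean FPKM of at least 0.5, were among the alternatives. Fits were also run on simulated counts in which few genes changed. That setting differs from these data, where 57.5% of tested genes were called, so it does not test the scaling here. Exact intervals are binomial.

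The members, the 7 related lists (154 genes, 13 of them in more than 1 list) and the tests were chosen with earlier results of these data known. The lists rest on general knowledge of myeloid biology. Named are the members, Tardbp, all relatives and partners, up to 6 called genes per list with the smallest adjusted p, and the 5 genes most like the member with the largest change. Csf3, Il6, Arg1, Il12b and the markers were named after their values were seen. A few of these genes are left out of the text.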

Additional observations from a re-analysis of the deposited data

How the results depend on the processing

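Of the 8 tested members, Cebpa kept its direction and call under all 15 alternatives (log2 fold change -1.21 to -0.997). Spi1 (-0.26 to -0.21), Irf8 (-0.25 to -0.19), Runx1 (-0.54 to -0.41), Mef2c (-0.25 to -0.19) and Cebpb (0.49 to 0.86) did so under 14 of 15. The exception was the test against an absolute log2 fold change of 0.5, under which 0 members were called higher and 1 lower, and 1221 genes higher and 744 lower in the whole table. Maf, not called in any alternative, had a log2 fold change of -0.0146 with library totals, -0.00430 with limma on log2(FPKM + 1) and -0.0038 on log2(FPKM + 0.1), and -0.0703 to 0.1225 with single libraries left out, negative without GFP replicate 1. Leaving out single libraries moved Irf2 between -0.0517 and 0.0299, positive without GFP replicate 2 and, at 0.00765, without TDP43-NLS replicate 2. It moved Runx3 between -0.1208 and 0.00143, positive without GFP replicate 2, and neither was called. With DESeq2 the IRF8 list had 1 gene lower. With single libraries left out, the upstream list had 5 to 9 genes higher, the lowest without GFP replicate 3. With the gene's strand alone, 0 member promoters held the RUNX motif and 1 the MAF motif, since fewer letters are searched. Otherwise the cause was not tested. Leaving out each library gave 3512 to 4210 genes higher and 3188 to 4041 lower, and the ratio of Cebpb to Cebpa was 4.73 to 5.80 in the GFP group and 18.2 to 19.6 in the TDP43-NLS group. The ratio's alternatives and the other scalings of the lists were chosen after seeing the data.

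Same-numbered libraries did not deviate together (correlations of deviations from the group means -0.016, -0.0112 and 0.00189 for numbers 1 to 3). These correlations cannot tell whether such libraries share a culture or batch, which the labels do not give. With the replicate block 3848 genes were higher and 3679 lower, and 1 member was higher and 5 lower, as without it. Cebpa, the detected member with the fewest reads, rests on 130 to 342 reads per library, and Sall1 is below detection at this depth.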
